A study of Mus musculus with 21 samples.

Results

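The genes described here are 5 chemokines that attract lymphocytes, Cxcl9, Cxcl10, Cxcl11, Ccl5 and Cxcl16, and 2 of their receptors, Cxcr3 and Cxcr6. They were chosen by name, with earlier results of these data known. They make up 7 of the 19752 genes with a probe set of their own on the array. Each had exactly 1 probe set. They were followed in whole tibialis anterior (TA) muscle, a muscle of the lower leg. The series is about injury by cardiotoxin, a snake venom toxin that destroys muscle fibres and starts regeneration.

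Chemokines are small secreted proteins that guide cells along a gradient through receptors on the cell surface. Cxcl9, Cxcl10 and Cxcl11 are induced by interferon gamma in macrophages, endothelium and stromal cells, and all bind Cxcr3, which is carried by effector T cells of the Th1 and CD8 kinds and by natural killer (NK) cells. Ccl5 is made by activated T cells, NK cells and macrophages and binds CC chemokine receptors, Ccr1 and Ccr3 among them. Cxcl16 is made as a membrane protein, mostly in macrophages and dendritic cells, is released by the proteases Adam10 and Adam17, and binds Cxcr6 on activated and tissue T cells. In injured muscle, monocytes and macrophages clear debris, and regulatory T cells (Tregs), which depend on the transcription factor Foxp3, restrain inflammation.

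All 21 samples came from male C57BL/6 mice aged 8 weeks that were labelled Foxp3-DTR+ or Foxp3-DTR- (DTR+ and DTR- below). DTR is the diphtheria toxin receptor, which makes Foxp3-expressing cells of DTR+ mice sensitive to diphtheria toxin. Per the series design, both genotypes received cardiotoxin at day 0 and diphtheria toxin on alternate days until dissection at day 4 or 8, so the DTR- controls had the toxin too. The titles also separate CTx from xINJ muscle, while the other labels call both kinds injured with cardiotoxin, so xINJ is used only as a name. There were 3 samples each of DTR- CTx at day 4, DTR- CTx at day 8, DTR- xINJ at day 4, DTR- xINJ at day 8 and DTR+ CTx at day 8. DTR+ CTx at day 4 had 2 samples (replicates 2 and 3) and DTR+ xINJ at day 8 had 2 (replicates 1 and 2). DTR+ xINJ at day 4 and DTR+ at day 0 had 1 sample each and entered no comparison. The title of the day 0 sample names neither CTx nor xINJ. The design above gives dissection at day 4 or 8 only, so the treatment of that sample is not stated here. DTR- xINJ day 4 replicate 1 carries a time tag of day 8 against its title. The labels do not say that replicates are separate animals, and the p-values therefore reflect the spread among these samples, which may be technical.

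Foxp3, the gene that marks the targeted cells, did not differ detectably with the genotype in CTx muscle at day 8 (log2 difference -0.18 ± 0.15, SE, limma adjusted p = 0.723), with values of 6.32 to 6.71 in DTR+ and 6.38 to 6.79 in DTR- muscle. Most of these values lay below the level used to filter dim genes, so they give no check of Treg loss. Ckm, the creatine kinase of muscle and a defining marker of the labelled tissue, was above that level on all 21 arrays, with means of 13.13 in CTx and 13.97 in xINJ muscle of DTR- mice at day 4. In bulk tissue, fewer cells of a type and less RNA per cell cannot be told apart.

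Promoter sequence is shown for the 4 members whose entry was in the RefSeq promoter table (build GRCm38.p6), because Cxcl9 and Cxcl10 changed together in every genotype comparison below that called either of them. Each run is the 250 bases before the gene start, 5′ to 3′ on the strand of the gene, and capitals mark matches to the motifs searched. Cxcl9 lies at chr5:92328080-92328329 (minus strand), Cxcl10 at chr5:92348890-92349139 (minus strand), Cxcr3 at chrX:101734148-101734397 (minus strand) and Cxcr6 at chr9:123806227-123806476 (plus strand). Ccl5, Cxcl16 and Cxcl11 are named only.
Cxcl9: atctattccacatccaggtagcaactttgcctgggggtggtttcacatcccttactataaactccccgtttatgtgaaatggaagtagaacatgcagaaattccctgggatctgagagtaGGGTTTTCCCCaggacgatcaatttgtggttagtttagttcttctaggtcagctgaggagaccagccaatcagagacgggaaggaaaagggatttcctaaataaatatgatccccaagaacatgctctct
Cxcl10: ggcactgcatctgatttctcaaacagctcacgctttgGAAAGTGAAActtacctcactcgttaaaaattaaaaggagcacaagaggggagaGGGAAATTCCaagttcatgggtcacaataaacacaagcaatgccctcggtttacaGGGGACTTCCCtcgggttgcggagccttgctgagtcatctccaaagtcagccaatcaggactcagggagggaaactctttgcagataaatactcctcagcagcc
Cxcr3: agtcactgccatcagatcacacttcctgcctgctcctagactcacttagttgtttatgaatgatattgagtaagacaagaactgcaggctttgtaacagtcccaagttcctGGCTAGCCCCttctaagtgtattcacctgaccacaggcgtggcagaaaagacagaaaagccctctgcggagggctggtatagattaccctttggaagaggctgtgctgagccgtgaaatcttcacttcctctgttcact
Cxcr6: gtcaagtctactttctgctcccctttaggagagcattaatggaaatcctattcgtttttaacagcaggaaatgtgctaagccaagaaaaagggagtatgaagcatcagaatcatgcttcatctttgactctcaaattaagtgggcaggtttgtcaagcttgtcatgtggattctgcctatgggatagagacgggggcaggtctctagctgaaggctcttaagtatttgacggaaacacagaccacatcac

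The motifs were searched on both strands of these 250 bases in all 32851 promoters of the table. The interferon-stimulated response element, searched as GAAA, any 2 bases and GAAA again, was in 2.98% of them and was matched in Cxcl10, as GAAAGTGAAA from 213 to 204 bases before the start. The NF-kappaB motif, searched as GGG, any 5 bases and CC, was in 45.8% of all promoters. In Cxcl10 it matched GGGAAATTCC from 159 to 150 bases before the start, and GGGGACTTCC and the overlapping GGGACTTCCC from 104 to 94. In Cxcl9 it matched GGGTTTTCCC from 130 to 121, with an overlapping match on the other strand, and in Cxcr3 a match was on the other strand only, from 139 to 130. The gamma-activated site (TTCNNNGAA, 7.02% of promoters) and the T-box motif (GGTGTGA, 3.33%) had no match in these 4 windows, and Cxcr6 had none of the motifs. The longest run shared by Cxcl9 and Cxcl10 was CAGCCAATCAG, 11 bases long, starting 68 and 57 bases before their starts. The other pairs shared runs of 7 to 9 bases. How many promoters of the table hold the run of 11 bases was not counted, so nothing particular to this pair is read from it. In the RefSeq gene order Cxcl9, Cxcl10 and Cxcl11 are neighbours on chromosome 5, with Art3 between the first pair, and Ccl5 is followed by Ccl9, Ccl6 and Ccl3 on chromosome 11. RefSeq lists Cxcl11 as a transcribed pseudogene in the C57BL/6J genome, a strain known to carry a frameshift in this gene.

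Values are log2 of the deposited intensities, and genes were tested when at least 2 arrays put them over the array's own 40th percentile, which was between log2 6.62 and 6.84. This kept 13278 genes. Of the members, Cxcl9, Cxcl10 and Ccl5 were above that level on all 21 arrays, Cxcr3 and Cxcl16 on 19, Cxcr6 on 4 and Cxcl11 on 1. Cxcr6 passed only through DTR+ CTx arrays, where it was high, and Cxcl11 was not tested. Intensities of different genes are not compared with each other, because probes differ in brightness. Significance is the limma adjusted p, with a threshold of 0.05, from 1 fit of all samples.

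**Figure D1:**
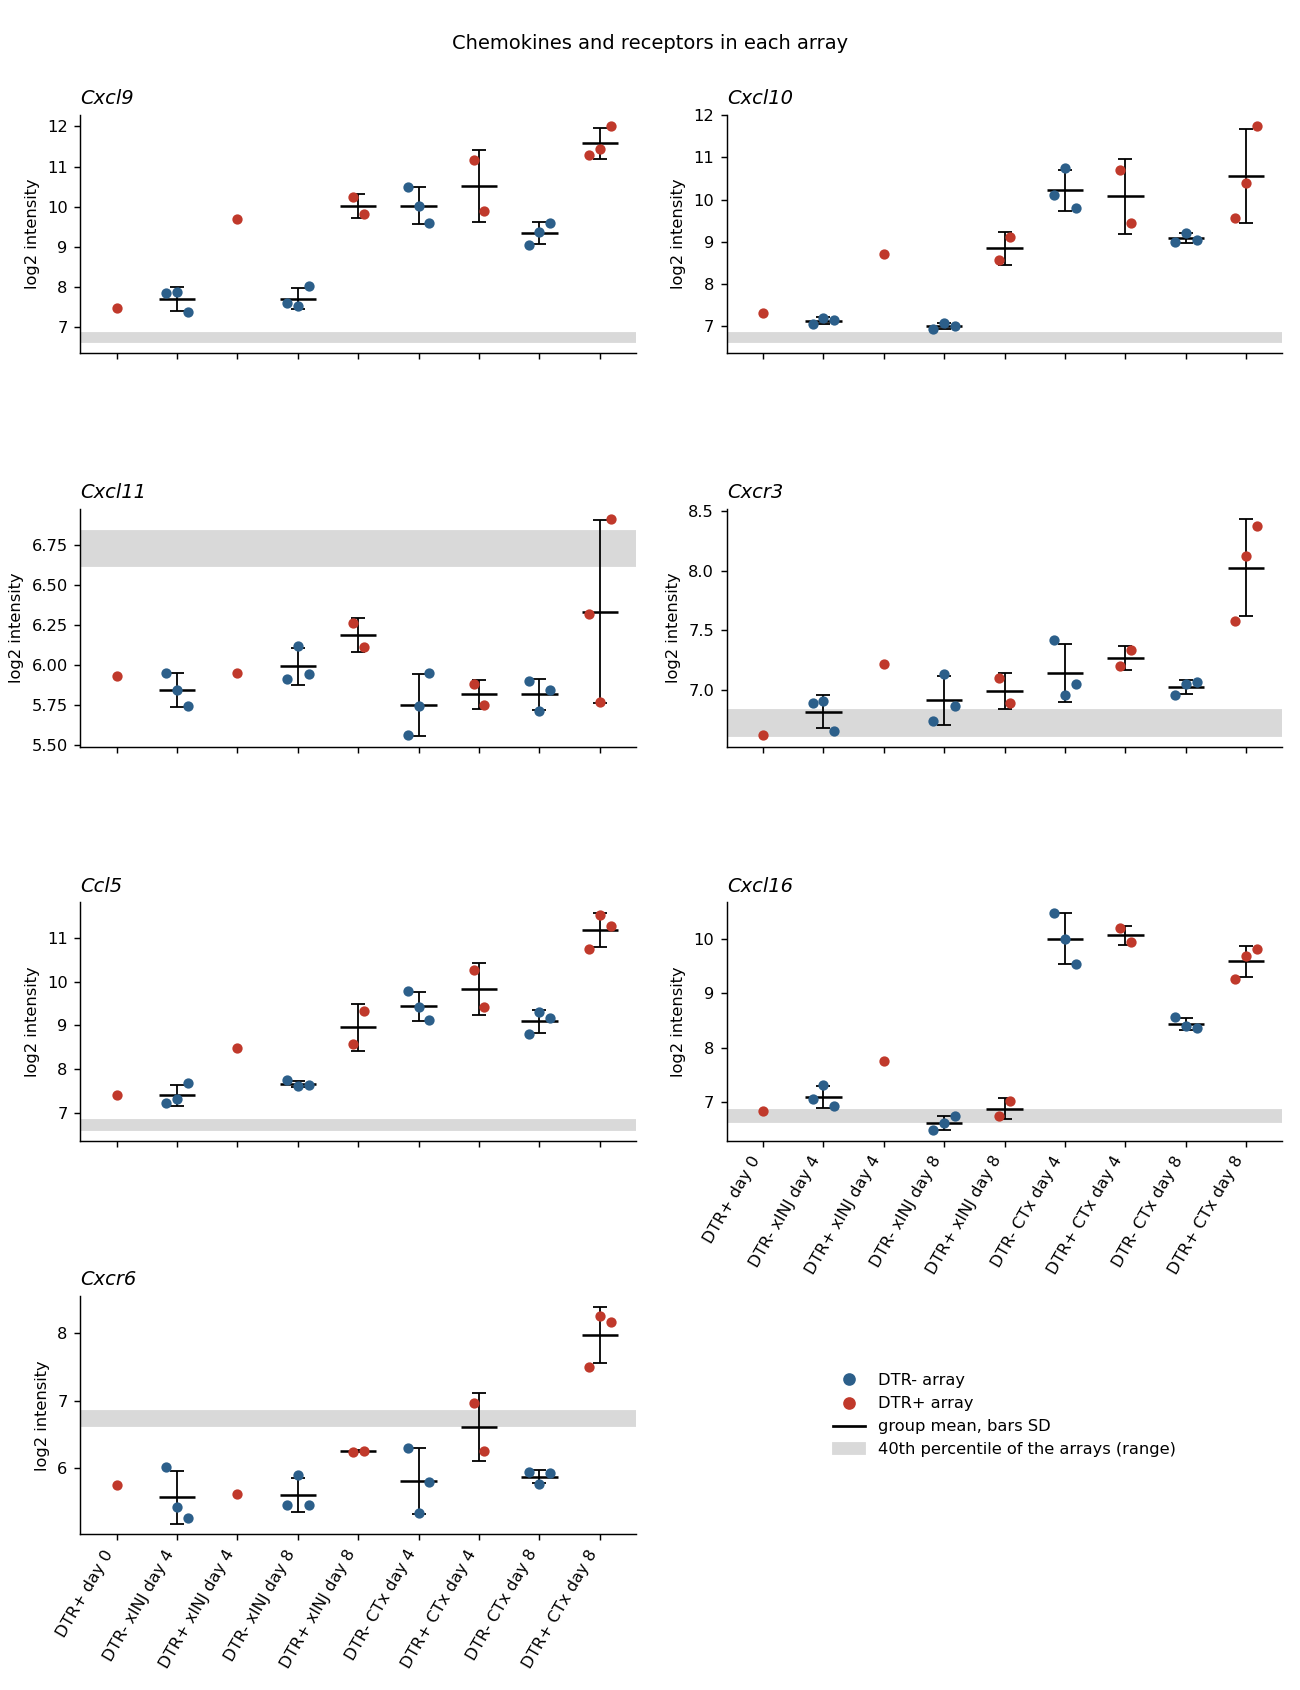
Log2 intensity of the 7 genes (vertical axes, a scale for each gene) on each of the 21 arrays in the 9 groups (horizontal axis), with DTR- arrays in blue and DTR+ arrays in red. Horizontal lines are group means, bars are SD where a group has more than 1 array, and the grey band is the range of the filter level over arrays. The DTR+ CTx day 8 arrays are the highest of all for Cxcl9, Cxcr3, Ccl5 and Cxcr6, and those of Cxcl16 lie below both groups of CTx muscle at day 4 in their mean.

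In DTR+ muscle at day 8, chemokine transcripts were higher than in DTR- muscle, and more of them in CTx than in xINJ muscle. On day 8 in CTx muscle the genotype went with higher Cxcl9, Cxcl10, Ccl5, Cxcl16, Cxcr3 and Cxcr6, which are all 6 tested members, where 3.03% of all tested genes were called higher. In the fit without the filter 6 of the 7 members were called, against 423 of 19752 genes. The members and the gene lists below were chosen with earlier results of these data known. Their counts beside the share of all genes are therefore a description. In xINJ muscle at day 8, 3 of the 6 were called higher (Cxcl9, Cxcl10 and Ccl5), where 1.81% of genes were. Every DTR+ sample lay above every DTR- sample for all 6 in CTx muscle, where 9.78% of genes did so. In xINJ muscle this held for 4 (the 3 called and Cxcr6), where 15.4% of genes did so. For CTx muscle of day 4 none of the 6 was called in either direction (0.00753% of genes were, 1 in number), and 1 of the 6, Cxcr6, had an unadjusted p under 0.05. The members' median log2 difference was 0.27 for CTx day 4, 1.78 for CTx day 8 and 0.97 for xINJ day 8, while that of all tested genes was 0.02, -0.01 and -0.01. These medians include Cxcr6, whose way through the filter is given above, and the CTx and xINJ comparisons share no samples. Tested directly by limma, the genotype effect at day 8 differed between CTx and xINJ muscle for none of the 6 members (4 at an unadjusted p under 0.05), where 0.233% of genes were called in either direction. The number of all genes called in CTx muscle at day 8 (489) was 265 without DTR+ CTx day 8 replicate 3 and 276 and 290 without replicates 1 and 2 of the DTR- group. In xINJ muscle the 347 genes became 90 and 153 without DTR+ replicates 1 and 2, and 183 without DTR- replicate 1. Without DTR- replicate 3 they became 113 higher and 20 lower.

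**Figure D2:**
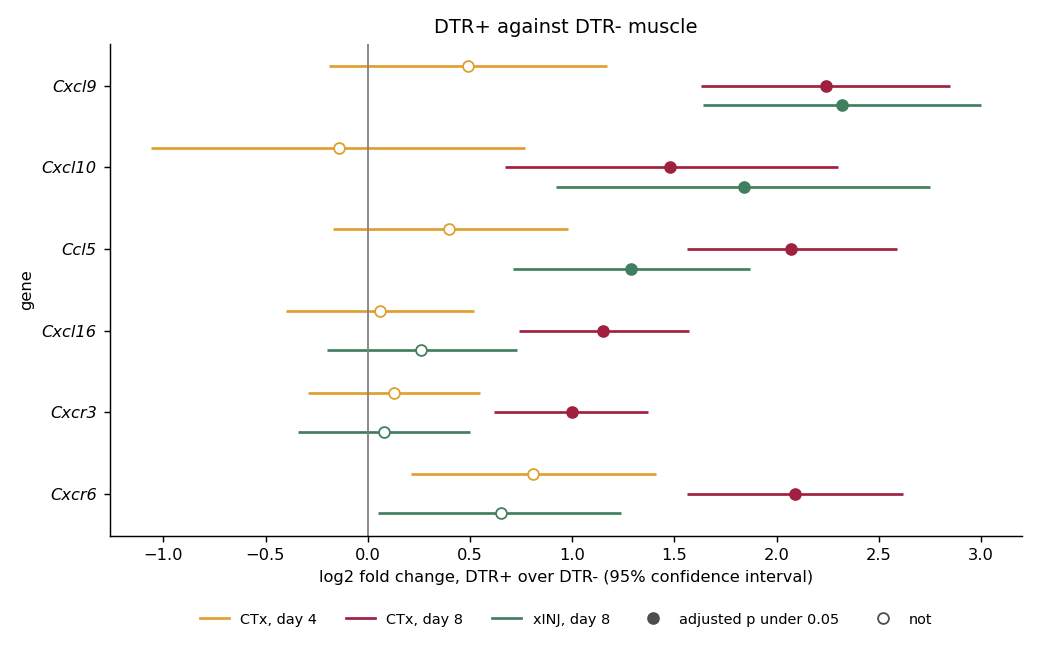
Log2 fold change of DTR+ over DTR- muscle (horizontal axis) for the 6 tested genes (vertical axis) for day 4 of CTx muscle (yellow), day 8 of CTx muscle (red) and day 8 of xINJ muscle (green). Lines are 95% confidence intervals from limma and filled points passed an adjusted p of 0.05. All 6 points for CTx day 8 are filled and lie between 1.00 and 2.24, those for Cxcl9, Cxcl10 and Ccl5 are filled for xINJ muscle, and none is filled for CTx day 4.

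Cxcl9, a ligand of Cxcr3, was low in the DTR- xINJ groups and at day 0 and high in every DTR+ sample after day 0. In DTR- xINJ muscle its log2 values were 7.85, 7.88 and 7.36 at day 4 and 7.59, 7.51 and 8.01 at day 8, and the day 0 sample had 7.47. In DTR- CTx muscle they were 10.49, 10.01 and 9.58 at day 4 and 9.05, 9.37 and 9.59 at day 8. DTR+ CTx muscle had 11.16 and 9.88 at day 4 and 11.28, 11.43 and 12.02 at day 8, and DTR+ xINJ muscle had 10.23 and 9.81 at day 8. Thus the DTR+ groups lay above the DTR- groups at day 8 without overlap in either kind of muscle, and overlapped them in CTx muscle at day 4. Cxcl9 was 4.72-fold higher in DTR+ than in DTR- CTx muscle at day 8 (log2 2.24 ± 0.29, SE, 3 against 3, limma adjusted p = 9.71e-05) and 5-fold higher in xINJ muscle (2.32 ± 0.33, 2 against 3, limma adjusted p = 0.000405). The difference between these effects was -0.08, with a 95% confidence interval of -1.0 to 0.83 (limma adjusted p = 1). Its sign was positive after quantile normalization (0.09) and without DTR+ CTx day 8 replicate 1 (0.07), DTR+ xINJ day 8 replicate 1 (0.13), DTR- CTx day 8 replicate 3 (0.04) or DTR- xINJ day 8 replicate 2 (0.01). At day 4 the difference with genotype in CTx muscle was 0.49 (interval -0.19 to 1.17, limma adjusted p = 1), and -0.15 without DTR+ CTx day 4 replicate 2. The effect at day 8 exceeded that at day 4 by 1.75 ± 0.44, which did not pass (limma adjusted p = 0.0761). It passed without DTR+ CTx day 4 replicate 2 (2.38, limma adjusted p = 0.012) and without DTR- CTx day 4 replicate 3 (1.97, limma adjusted p = 0.0389). In the order of the group means, DTR+ CTx day 8 (11.57 ± 0.39, SD) stood clear of the next, and DTR+ CTx day 4, DTR- CTx day 4 and DTR+ xINJ day 8 overlapped as neighbours.

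Cxcl10, the other measurable ligand of Cxcr3, differed most between CTx and xINJ muscle of DTR- mice. Its values were 7.05, 7.20 and 7.14 in DTR- xINJ muscle at day 4, 6.93, 7.07 and 7.01 at day 8, and 7.30 at day 0. DTR- CTx muscle had 10.11, 10.75 and 9.80 at day 4 and 8.99, 9.21 and 9.05 at day 8. DTR+ CTx muscle had 10.70 and 9.45 at day 4 and 9.55, 10.39 and 11.75 at day 8, and DTR+ xINJ muscle had 8.56 and 9.12 at day 8. The DTR+ CTx samples at day 8 spread widely, and all of them lay above the DTR- samples of that day. The fold was 2.79 (log2 1.48 ± 0.39, SE, 3 against 3, limma adjusted p = 0.0372). That call was lost with only the 6 compared arrays in the fit (limma adjusted p = 0.102). It was also lost without any array of these groups but DTR+ replicate 1. The value was 0.89 (limma adjusted p = 0.241) without DTR+ replicate 3 and 1.57 (0.0745) without DTR+ replicate 2, and the limma adjusted p was 0.138, 0.0935 and 0.112 without DTR- replicates 1, 2 and 3. In xINJ muscle at day 8 Cxcl10 was 3.57-fold higher in DTR+ mice (1.84 ± 0.43, 2 against 3, limma adjusted p = 0.0271), which did not pass without DTR+ replicate 1 (2.12, 0.114) or 2 (1.55, 0.279) or DTR- replicate 1 (0.0909) or 3 (0.0973). At day 4 in CTx muscle the difference was -0.14 (interval -1.06 to 0.77, limma adjusted p = 1), with sign and size resting on single samples, since it was 0.48 without DTR+ CTx day 4 replicate 3 and 0.12 without DTR- CTx day 4 replicate 2. The difference of the genotype effects between the days was 1.63 ± 0.58 (limma adjusted p = 0.263), and 2.13 (0.0496) without DTR+ CTx day 8 replicate 1. Between CTx and xINJ muscle it was -0.35 (interval -1.58 to 0.87, limma adjusted p = 1), and 0.15 without DTR+ CTx day 8 replicate 1.

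Cxcl11 lay below the filter level in every group but DTR+ CTx at day 8. Its values there were 6.32, 5.77 and 6.91, and only replicate 3, the sample that was also highest for Cxcl10, was above the level. Elsewhere its values were between 5.56 and 6.26. In the fit without the filter its difference with genotype in CTx muscle at day 8 was 0.52 ± 0.20 and did not pass (limma adjusted p = 0.268), and the groups overlapped.

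Cxcr3, the receptor of these ligands, was highest in DTR+ CTx muscle at day 8. Values there were 7.58, 8.12 and 8.37, against 6.96, 7.05 and 7.07 in DTR- CTx muscle of the same day, so the groups did not overlap. The receptor was 2.00-fold higher (log2 1.00 ± 0.18, SE, limma adjusted p = 0.00216). In xINJ muscle at day 8 the DTR+ samples had 7.10 and 6.89 and the DTR- samples 6.74, 7.14 and 6.87, which overlapped, and the difference was 0.08 (interval -0.34 to 0.50, limma adjusted p = 0.97). Without DTR+ xINJ day 8 replicate 1 or DTR- xINJ day 8 replicate 1 its sign turned (-0.02 and -0.01). At day 4 in CTx muscle DTR+ had 7.20 and 7.34 and DTR- 7.42, 6.96 and 7.05 (difference 0.13, interval -0.29 to 0.55, limma adjusted p = 1). The genotype effect in CTx muscle exceeded that in xINJ muscle by 0.92 ± 0.27 (limma adjusted p = 0.242) and that of day 4 by 0.87 ± 0.27 (limma adjusted p = 0.162), so neither difference passed, and the latter passed without DTR+ CTx day 8 replicate 1 (1.09, limma adjusted p = 0.0331). The group means from DTR+ CTx day 4 (7.27) down to DTR- xINJ day 4 (6.82) overlapped from neighbour to neighbour. Among them was the DTR+ xINJ day 4 sample, at 7.22, above all 6 DTR- xINJ samples (6.66 to 7.14).

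Ccl5, which is made by T cells, NK cells and macrophages, rose with the genotype in both kinds of muscle at day 8. DTR- xINJ muscle had 7.23, 7.31 and 7.68 at day 4 and 7.75, 7.62 and 7.63 at day 8, and DTR- CTx muscle 9.78, 9.41 and 9.12 and then 8.80, 9.31 and 9.18. DTR+ CTx muscle had 10.26 and 9.42 at day 4 and 10.75, 11.51 and 11.26 at day 8, and DTR+ xINJ muscle 8.58 and 9.33 at day 8. The DTR+ CTx samples at day 8 were higher than all others. The fold with genotype was 4.21 in CTx muscle (log2 2.07 ± 0.25, SE, 3 against 3, limma adjusted p = 3.93e-05) and 2.44 in xINJ muscle (1.29 ± 0.28, 2 against 3, limma adjusted p = 0.0144). The call in xINJ muscle was lost without DTR+ xINJ day 8 replicate 2 (0.91, limma adjusted p = 0.283) and without DTR- xINJ day 8 replicate 3 (1.27, 0.0638). The effects in CTx and xINJ muscle differed by 0.79 (interval 0.01 to 1.56), which did not pass (limma adjusted p = 0.752). In CTx muscle at day 4 the difference with genotype was 0.40 (interval -0.17 to 0.98, limma adjusted p = 1), and -0.02 without DTR+ CTx day 4 replicate 2.

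Ccl5 was the only member whose genotype effect in CTx muscle passed as larger at day 8 than at day 4, by 1.67 ± 0.37 (limma adjusted p = 0.0477), 1 of 6 members where 0.557% of genes were called in that direction. The call was close to the threshold. It was lost without the filter (limma adjusted p = 0.0587), with arrays centred on their median (1.62, 0.0715) and with only the groups compared (0.101). It was also lost without DTR+ CTx day 4 replicate 3 (1.25, 0.428), DTR+ CTx day 8 replicates 2 (0.108) and 3 (0.113), DTR- CTx day 4 replicates 1 (0.129) and 2 (0.0547), and DTR- CTx day 8 replicates 1 (0.135), 2 (0.0803) and 3 (0.078). With the replicate number as a block 153 genes were called in this comparison, against 78 without it. Ccr1 and Ccr3, which bind Ccl5, were below the filter level. In the fit without the filter Ccr1 was higher with the genotype in CTx muscle at day 8 (means 5.72 against 4.84, 0.88 ± 0.15, limma adjusted p = 0.00179), and Ccr3 was not (0.07, limma adjusted p = 0.946). Both are differences among dim values.

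Cxcl16, the membrane-bound ligand of Cxcr6, was highest in CTx muscle at day 4 in both genotypes. It had 10.48, 10.01 and 9.55 in DTR- and 10.20 and 9.95 in DTR+ CTx muscle at day 4, and these overlapped. At day 8 the values were 8.57, 8.39 and 8.36 in DTR- and 9.26, 9.69 and 9.82 in DTR+ CTx muscle, which did not overlap. In xINJ muscle at day 8 they were 6.48, 6.61 and 6.73 in DTR- and 6.73 and 7.01 in DTR+ mice. Cxcl16 was 2.22-fold higher in DTR+ CTx muscle at day 8 (log2 1.15 ± 0.20, SE, 3 against 3, limma adjusted p = 0.00151). The difference was 0.26 in xINJ muscle (interval -0.20 to 0.73, limma adjusted p = 0.773) and 0.06 in CTx muscle at day 4 (interval -0.40 to 0.52, limma adjusted p = 1), and the latter turned sign without DTR+ CTx day 4 replicate 2 (-0.06) and DTR- CTx day 4 replicate 3 (-0.17). The effect in CTx muscle exceeded that in xINJ muscle by 0.89 ± 0.30 (limma adjusted p = 0.383). It exceeded that at day 4 by 1.09 ± 0.30 (limma adjusted p = 0.104), which passed without DTR+ CTx day 8 replicate 1 (1.26, 0.0496) and without DTR- CTx day 4 replicate 3 (1.32, 0.0263).

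Cxcr6, the receptor, rose above the filter level only in DTR+ CTx muscle. Its values were 7.49, 8.25 and 8.16 there at day 8 and 6.97 and 6.26 at day 4, against 5.94, 5.76 and 5.93 and 6.30, 5.33 and 5.79 in DTR- CTx muscle. In xINJ muscle at day 8 DTR+ samples had 6.24 and 6.26 and DTR- samples 5.46, 5.90 and 5.45. The receptor was at least 2.35-fold higher in DTR+ than in DTR- CTx muscle at day 8, where the dimmer group is set at the filter level because each of its arrays lay below it (a level for filtering, not a limit of detection). The fitted log2 difference was 2.09 ± 0.25 (means 7.97 and 5.88, limma adjusted p = 5.11e-05). At day 4 it was 0.81 (interval 0.21 to 1.41, limma adjusted p = 1) and in xINJ muscle 0.65 (interval 0.05 to 1.24, limma adjusted p = 0.339), neither of which passed. The difference between the effects in CTx and xINJ muscle was 1.44 ± 0.38 (limma adjusted p = 0.168, and 0.0477 with only the groups compared), and that between the days was 1.28 ± 0.38 (limma adjusted p = 0.147).

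**Figure D3:**
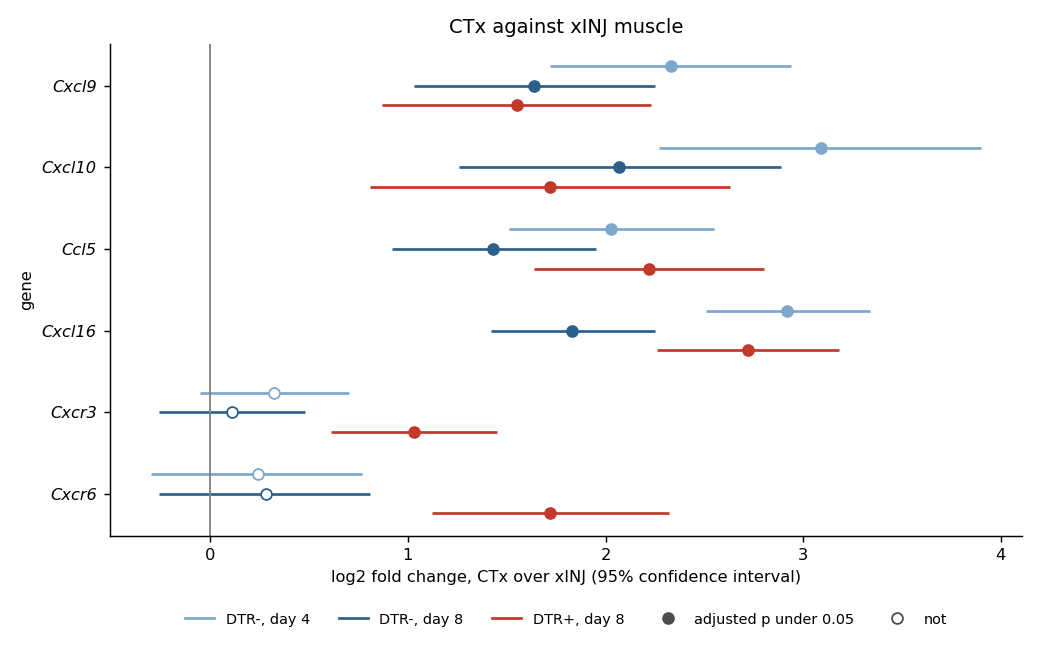
Log2 fold change of CTx over xINJ muscle (horizontal axis) for the 6 tested genes (vertical axis) in DTR- mice at days 4 and 8 and in DTR+ mice at day 8. Lines are 95% confidence intervals from limma and filled points passed an adjusted p of 0.05. Cxcl9, Cxcl10, Ccl5 and Cxcl16 are filled in all 3 comparisons, and Cxcr3 and Cxcr6 only in DTR+ mice.

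The comparison of CTx with xINJ muscle asked how these genes stood in the 2 kinds of muscle of 1 genotype. In DTR- mice the ligands were higher in CTx muscle and the receptors were not called. At day 4, 4 of the 6 tested members were higher, where 26.1% of genes were. Cxcl16 was 7.58-fold higher (log2 2.92 ± 0.20, SE, 3 against 3, limma adjusted p = 1.25e-09), Cxcl10 8.51-fold (3.09 ± 0.39, 2.96e-06), Cxcl9 5.03-fold (2.33 ± 0.29, 2.68e-06) and Ccl5 4.08-fold (2.03 ± 0.25, 2.02e-06), all by the limma adjusted p. Cxcr3 (0.32, interval -0.05 to 0.70, limma adjusted p = 0.146) and Cxcr6 (0.24, interval -0.30 to 0.77, limma adjusted p = 0.466) did not pass, and Cxcr6 was at -0.01 without DTR- CTx day 4 replicate 1. The split of all genes called was 3472 higher and 2718 lower. It was 3009 and 3780 with arrays centred on their median, which moved the median of all genes from -0.01 to -0.12, and 3048 and 3676 after quantile normalization, with the same number of members called.

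At day 8 in DTR- mice the same 4 ligands were higher, where 10.4% of genes were: Cxcl10 by 2.07, Cxcl16 by 1.83, Cxcl9 by 1.64 and Ccl5 by 1.43 (limma adjusted p between 2.93e-06 and 0.00107). Cxcr3 (0.11, interval -0.26 to 0.48) and Cxcr6 (0.28, interval -0.26 to 0.81) did not pass. The split of 1378 higher and 421 lower genes was 1112 and 663 with centring and 1256 and 814 with quantile normalization, and 1026 genes were called without DTR- CTx day 8 replicate 3, against 1799.

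In DTR+ mice at day 8 all 6 tested members were higher in CTx muscle, where 16.7% of genes were. Cxcl16 differed by 2.72 ± 0.22, Ccl5 by 2.22 ± 0.28, Cxcl10 by 1.72 ± 0.43, Cxcl9 by 1.55 ± 0.33 and Cxcr3 by 1.03 ± 0.20 (SE, 3 against 2, limma adjusted p between 9.5e-08 and 0.00641). Cxcr6 was at least 2.45-fold higher. Without the filter 6 of the 7 were called, against 2209 of 19752 genes. Of the tested markers, 11 of 13 T cell genes (median 1.13), 6 of 7 NK and cytotoxic genes (median 0.99) and 11 of 12 macrophage genes (median 2.13) were higher in the same comparison and none was lower, and their part was not tested. Cxcl10 did not pass without DTR+ xINJ day 8 replicate 1 (1.44, limma adjusted p = 0.0989), and without that sample 1833 genes were called in all, against 3353. The split of 2223 higher and 1130 lower genes was 1624 and 1898 with centring, which moved the median of all genes from 0.04 to -0.10, and 1998 and 1779 with quantile normalization. This comparison shares its CTx samples with the genotype comparison at day 8. Whether the receptors differed between genotypes in this respect is the test given above for each, and neither passed.

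The days were also compared within each genotype. The difference between the genotypes in this respect is the test of the genotype effect at day 8 minus that at day 4 given for each member above, which passed for Ccl5 alone of the 6, close to the threshold, and for no other. In DTR- CTx muscle 2 of the 6 were lower at day 8, where 18% of genes were. Cxcl16 was 2.98-fold lower (log2 -1.57 ± 0.20, SE, limma adjusted p = 1.16e-05) and Cxcl10 2.20-fold lower (-1.14 ± 0.39, limma adjusted p = 0.0334). The Cxcl10 call was lost without DTR- CTx day 4 replicate 1 (0.0574) or 2 (-0.87, 0.149) and without DTR- CTx day 8 replicate 1 (0.0897), 2 (0.0603) or 3 (0.0774). Cxcl9 (-0.69, limma adjusted p = 0.0841) did not pass in the main analysis, and did with only the groups compared (0.0474) and without DTR- CTx day 4 replicate 3 (-0.91, 0.0376). Ccl5 (-0.34), Cxcr3 (-0.12, and 0.02 without DTR- CTx day 4 replicate 1) and Cxcr6 (0.07, and -0.16 without DTR- CTx day 4 replicate 2) did not pass.

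In DTR+ CTx muscle 4 of the 6 were higher at day 8 than at day 4, where 2.84% of genes were. This count includes Cxcr6, which passed the filter through DTR+ CTx arrays alone, and without the filter 3 of the 7 were called (Cxcl9 was not), against 370 of 19752 genes. Ccl5 differed by 1.33 ± 0.28 (SE, 3 against 2, limma adjusted p = 0.00394), Cxcr6 by 1.35 ± 0.29 (0.00456), Cxcr3 by 0.75 ± 0.20 (0.0188) and Cxcl9 by 1.06 ± 0.33 (0.0426). Cxcl16 (-0.48, limma adjusted p = 0.178) and Cxcl10 (0.49, limma adjusted p = 0.519) did not pass, and Cxcl10 was at -0.13 without DTR+ CTx day 4 replicate 3 and -0.10 without DTR+ CTx day 8 replicate 3. None of the 6 passed without DTR+ CTx day 4 replicate 3, where Cxcl9 was at 0.42 (limma adjusted p = 0.487), Ccl5 at 0.91 (0.0892), Cxcr6 at 1.00 (0.085) and Cxcr3 at 0.82 (0.0585). Cxcl9 also did not pass without DTR+ CTx day 8 replicate 2 (0.0651) or 3 (0.83, 0.129), without the filter (0.0543), with only the groups compared (0.0752) or with the replicate number as a block (1.04, 0.0563). Cxcr3 did not pass without DTR+ CTx day 4 replicate 2 (0.135), without DTR+ CTx day 8 replicate 2 (0.0598) or 3 (0.0635), or with only the groups compared (0.0913). Of the tested T cell genes 5 of 13 were higher and none lower between these days (median 0.59), and of the macrophage genes none was higher and 9 of 12 were lower (median -0.86), and their part in the members' changes was not tested. All genes called numbered 1471, and 624 and 973 without DTR+ CTx day 4 replicate 2 and DTR+ CTx day 8 replicate 1. Their split of 377 higher and 1094 lower was 648 and 999 after quantile normalization.

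The genes around these members in the interferon gamma pathway were partly higher in DTR+ CTx muscle at day 8, with 7 of 16 tested genes called higher and none lower (median log2 difference 0.44, against -0.01 for all genes). Ifng is among the 16 through DTR+ CTx day 8 arrays alone, and without the filter 9 of the 19 genes in the table were called higher. Ifng, the cytokine, had 6.97, 6.96 and 7.08 against 6.24, 6.25 and 6.56 in DTR- muscle. It was at least 1.21-fold higher, with a fitted log2 difference of 0.65 ± 0.15 (limma adjusted p = 0.0199). Irf1, an interferon-induced transcription factor, was higher by 2.03 ± 0.27 (limma adjusted p = 0.000123), and by 1.14 when its probe sets were averaged. Irf8 (1.00), Socs1 (0.94), a feedback inhibitor, and Il12rb1 (0.70), a subunit of the interleukin 12 receptor, were also called. So was Ifngr1 (0.56), a subunit of the interferon gamma receptor. With 1 sample left out, the call of Ifngr1 was lost in 4 of 6 runs, that of Irf8 in 3, and those of Socs1 and Il12rb1 in 2 each. Ifngr1 was also lost with arrays centred on their median (limma adjusted p = 0.0552) and with only the groups compared (0.0784). The count of 7 was 1 without DTR+ CTx day 8 replicate 3, 4 without replicate 2, and 2 and 3 without replicates 1 and 2 of the DTR- group. Ifng itself was lost without each of these 4 samples (limma adjusted p between 0.0528 and 0.111). In xINJ muscle 3 of the 16 were higher (median 0.10): Irf1 (2.25 ± 0.30, limma adjusted p = 0.000322, and 1.34 with its probe sets averaged), Irf9 (1.64) and Irf8 (1.5). Irf8 did not pass there without DTR+ xINJ day 8 replicate 1 (1.02, 0.121). Ifng did not differ detectably in xINJ muscle (0.04 ± 0.17, limma adjusted p = 0.992), with both group means below the filter level. At day 4 none of the 16 was called by limma in CTx muscle, and 0 had an unadjusted p under 0.05.

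Other chemokines moved with the genotype too. Of 21 other chemokine ligands tested, 7 were higher in DTR+ CTx muscle at day 8 and none was lower (median 0.35). Of the 21, Ccl22 and Ccl24 passed the filter through DTR+ CTx arrays of day 8 alone, where they were high, so the count is a description. Without the filter 7 of the 31 ligands in the table were called higher. Ccl8, a monocyte chemoattractant, was 7.23-fold higher (log2 2.85 ± 0.33, SE, limma adjusted p = 3.45e-05) and Ccl9 3.24-fold (1.70 ± 0.20, limma adjusted p = 3.44e-05). Ccl17, a ligand of Ccr4, was at least 2.31-fold and Ccl24, an eotaxin, at least 1.62-fold higher. In xINJ muscle 4 of the 21 were higher (median 0.27), Ccl9 by 1.28 and Ccl8 by a fitted 1.63, which did not pass without any of the 5 samples in turn (limma adjusted p between 0.053 and 0.305). Of 9 other chemokine receptors, Ccr2 alone, the receptor of inflammatory monocytes, was called in CTx muscle at day 8 (1.17 ± 0.31, limma adjusted p = 0.0365). That call was lost when any of the 6 samples was left out in turn (limma adjusted p between 0.0653 and 0.179). It was also lost with arrays centred on their median (limma adjusted p = 0.051) and after quantile normalization (0.0586). Ccr7 (0.28), Ackr1 (0.26) and Cxcr4 (0.17) did not pass, and none of the 9 passed by limma in xINJ muscle (1 at an unadjusted p under 0.05). Of 5 genes that process or bind chemokines, none was called by limma with the genotype at day 8 in either kind of muscle (1 in CTx and 1 in xINJ muscle at an unadjusted p under 0.05). These were led in CTx muscle by Sdc4 (0.36), Adam10 (0.24) and Dpp4, which trims Cxcl10 (0.22), and Adam17 had 0.07.

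In DTR- muscle at day 4, 8 of the 21 other ligands were higher and 2 lower in CTx than in xINJ muscle (median 0.30, against -0.01 for all genes). In this comparison 26.1% of all tested genes were called higher (3472) and a further 2718 were lower, which is the background for the counts of ligands, receptors and interferon gamma genes here, and nothing particular to these lists is read from them. Ccl3 was at least 8.32-fold higher and Ccl8 at least 4.07-fold, Ccl9 differed by 2.24 ± 0.20 and Pf4, platelet factor 4, by 1.78 ± 0.22. Of the 9 other receptors 4 were higher and 2 lower, with Ccr2 at least 5.54-fold higher, Cxcr4 higher by 2.14, Cx3cr1 by 2.08 and Ccr7 by 0.79. Interferon gamma pathway genes were higher for 6 of 16 and lower for 4, Irf8 by 2.07, Irf1 by 1.31 (0.50 with its probe sets averaged), Irf9 by 1.1 and Ifngr1 by 1.03, and Il18 was at least 1.44-fold higher. Ifng was not called (-0.12, limma adjusted p = 0.55). The proteases that release Cxcl16 were higher, Adam17 by 1.24 ± 0.17 (limma adjusted p = 5.86e-06) and Adam10 by 1.12 ± 0.18 (limma adjusted p = 4.81e-05), as was Sdc1, a heparan sulfate proteoglycan, by 0.57 (0.38, limma adjusted p = 0.0703, without DTR- CTx day 4 replicate 2). Dpp4 did not pass (0.27, limma adjusted p = 0.195).

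**Figure D4:**
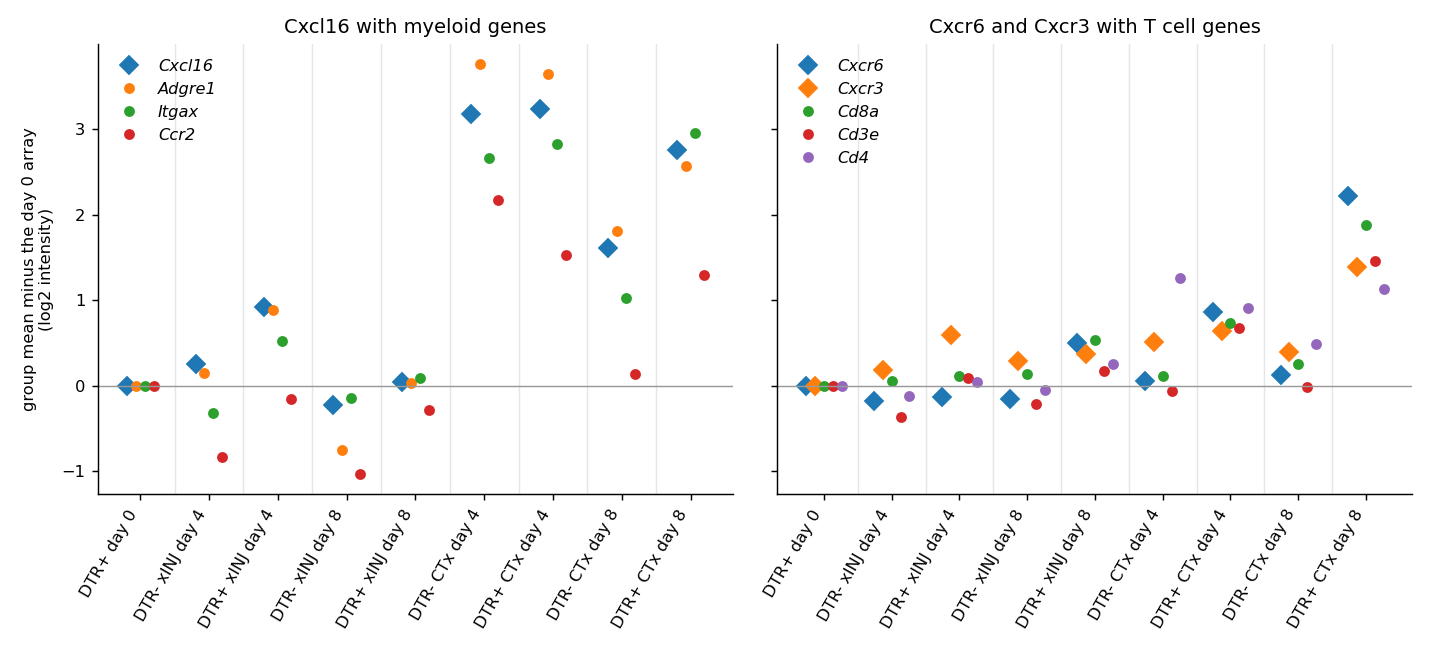
Mean log2 intensity of each group minus the value of the same gene in the DTR+ day 0 array (vertical axes) for the 9 groups (horizontal axes). The left panel shows Cxcl16 (diamonds) with Adgre1, Itgax and Ccr2 (circles), and the right panel shows Cxcr6 and Cxcr3 (diamonds) with Cd8a, Cd3e and Cd4 (circles). The day 0 array and the DTR+ xINJ day 4 array are 1 sample each. Cxcl16 is highest in the CTx day 4 groups, and Cxcr6, Cxcr3, Cd8a and Cd3e are highest in DTR+ CTx muscle at day 8.

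Genes of the T cell, NK and cytotoxic and macrophage lists followed the members in some comparisons and not in others. Their part in the results was not tested. With the genotype in CTx muscle at day 8, 10 of 13 tested T cell genes were higher and none lower (median 0.80). Cd3g and Zap70, and Gzmk of the NK and cytotoxic list, passed the filter through DTR+ CTx arrays alone. Without it 11 of 14 T cell genes and 5 of 13 NK and cytotoxic genes were called higher. The mean over all 14 T cell genes in the table was 7.21 to 7.77 in DTR+ and 6.45 to 6.64 in DTR- muscle. Cd8a, the CD8 coreceptor, was at least 2.7-fold higher, Cd3g at least 2.67-fold, Cd8b1 at least 2.67-fold and Cd2 at least 2.43-fold. Cd3e had 7.95, 8.92 and 8.76 against 6.87, 7.15 and 7.24 (1.46 ± 0.22, limma adjusted p = 0.00038). Cd4 was higher by 0.64 (limma adjusted p = 0.0251), but not without DTR+ replicate 2 or 3 or any of the 3 DTR- samples in turn, nor with only the groups compared (0.0521 to 0.159). NK and cytotoxic genes were higher for 4 of 7 (median 1.13), with Nkg7, a granule protein, higher by 2.49 ± 0.28 and Gzmb, granzyme B, at least 2.37-fold. Ncr1, which defines NK cells, was below the filter level on all arrays but 1, with 5.77 to 5.95 in DTR+ and 5.21 to 5.81 in DTR- CTx muscle at day 8. Macrophage genes were higher for 4 of 12 (median 0.72, 2 without DTR- CTx day 8 replicate 1, 8 with the replicate block). Their mean was 9.39 to 9.46 in DTR+ and 8.72 to 8.79 in DTR- muscle. Adgre1, a surface receptor that marks macrophages, differed by 0.76 (limma adjusted p = 0.0131), and was not called without DTR+ replicate 3 or DTR- replicates 1 or 2 (0.0704 to 0.0766). Itgax, the CD11c integrin of dendritic cells and some macrophages, was higher by 1.93 ± 0.19 (limma adjusted p = 6.01e-06).

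In xINJ muscle at day 8, where Cxcl9, Cxcl10 and Ccl5 were called, none of the 13 T cell genes was called by limma with the genotype (2 had an unadjusted p under 0.05, and 1 was called with only the groups compared), and Cd3e had 7.01 and 7.53 against 6.86, 7.14 and 6.64. The T cell mean was 6.55 to 6.57 in DTR+ and 6.28 to 6.48 in DTR- samples. Macrophage genes were higher for 5 of 12 (median 0.54), with 2 or 3 called without DTR+ replicate 1 or 2 or DTR- replicate 1 or 3, and their mean was 7.43 to 7.73 against 6.76 to 7.03. Adgre1 was at least 1.5-fold higher, and did not pass without DTR+ replicate 1 (0.113) or 2 (0.341) or DTR- replicate 1 (0.0962) or 3 (0.153). Nkg7 was at least 1.81-fold higher, and did not pass without DTR+ replicate 2 (0.224) or DTR- replicate 3 (0.0669). In CTx against xINJ muscle of DTR- mice at day 4, where 26.1% of all genes were called higher, all 12 macrophage genes were higher (median 3.04, 11 called without the filter). Of the 13 T cell genes 2 were, a share below that background, Cd28 by 1.21 and Cd4 by at least 2.01-fold, while Cd247, a T cell receptor signalling chain, was lower. The macrophage mean was 10.21 to 10.58 in CTx and 7.25 to 7.57 in xINJ muscle, and 8.72 to 8.79 in the CTx muscle of DTR- mice on day 8. The T cell mean of CTx samples at day 4 was 6.94 to 7.0 in DTR+ and 6.42 to 6.61 in DTR- samples, and none of the 13 T cell genes was called by limma with the genotype (7 at an unadjusted p under 0.05).

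Over the 9 group means the members differed in which genes they resembled, by Pearson's r across groups (13272 tested genes compared with each member, all values from the same arrays, given as a description). Cxcr6 was most like Cd8b1 (r = 0.9911), Cd8a (0.9909) and Cd2 (0.9898), which are T cell genes. All 8 group means of Cxcr6 other than DTR+ CTx day 8 lay at or below the range of the filter level (5.57 to 6.62), and over those 8 means r with these genes was 0.95 to 0.97. Cxcl16 was most like Abhd2 (0.9971), Rassf2 (0.9962) and Tspo (0.9951). Cxcl9 was most like C4b (0.9833), a complement component, Psmb8 (0.9832), an immunoproteasome subunit, and H2-Q4 (0.9762), an MHC class I gene. Cxcl10 was most like Casp4 (0.9835), Map3k14 (0.9774) and Cd52 (0.9767), Ccl5 like Il2rb (0.9869), a receptor subunit for interleukins 2 and 15, Ptpn7 (0.975) and Rassf1 (0.9741), and Cxcr3 like Septin1 (0.9784), Tlr12 (0.9538) and Rab11fip1 (0.9529). Without DTR+ CTx day 8, r for these 3 genes of Cxcr3 was 0.94, 0.83 and 0.81. For the genes of the other members it was 0.95 or above. Among the members, Cxcl9, Cxcl10 and Ccl5 correlated with each other at 0.95 to 0.96, whereas Cxcl16 and its receptor Cxcr6 correlated at 0.55. Cxcr3 correlated with its ligands at 0.87 (Cxcl9) and 0.78 (Cxcl10).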

How the data were processed

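Total RNA of whole muscle, extracted with Trizol and labelled with biotin, was measured on Affymetrix Mouse Gene 1.0 ST arrays, 1 per sample. The deposited values are probe set intensities on a linear scale, which the authors made with RMA. The submitters' processing notes name Affymetrix Power Tools for it, and the sources used here give no versions. RMA brings the probes of all arrays to a common distribution before summarizing them, so differences are relative to the other genes. Log2 was taken here. Median intensity per array was 133.05 to 159.53, no samples held identical values, and precision is limited by how many arrays there are.

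Probe sets were joined to genes through the platform annotation: of 24922, 21425 had 1 symbol, 1399 several and 2098 none listed. Where a gene had several (921 genes), the brightest stood for it. All 21 samples entered 1 fit (limma 3.58.1, R 4.3.3) with 9 group means, 12 residual and 6.56 prior degrees of freedom. There were 10 contrasts, two-sided, with Benjamini-Hochberg adjustment within each. A fold written as at least takes the filter level of the arrays for a group below it on every array.

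Same-numbered samples deviated together (r over all tested genes above 0.1 for each of 3 pairs) in DTR+ against DTR- CTx muscle at day 8 (0.55, 0.39, 0.23) and in DTR- CTx muscle between days (0.35, 0.34, 0.24). Both pairs of DTR+ CTx and DTR+ xINJ muscle at day 8 were also above 0.1 (0.31, 0.30). The 2 arrays of DTR+ xINJ muscle at day 8 deviate from their mean by equal and opposite amounts, so these 2 values are not independent. In the other comparisons not every pair was above 0.1. Of all 20 pairs 13 were above 0.1, with a range of -0.45 to 0.55. Deviations within a group balance each other and groups recur, so the 20 pairs are not independent either. No label says what a number shares, so the block is given beside results it changes. Members and gene lists were chosen with earlier results of these data known. Named genes are the members, up to 4 tested genes per list with the smallest p in the genotype comparison of CTx muscle at day 8 and in CTx against xINJ muscle of DTR- mice at day 4, a fixed set of partners and markers, and the 3 genes most like each member. The B cell, neutrophil, endothelial, fibroadipogenic progenitor, muscle fibre and Treg lists had 0, 1, 0, 0, 0 and 1 genes higher and 0, 0, 2, 1, 0 and 0 lower with the genotype in CTx muscle at day 8, and the dendritic cell list 2 higher. Alternatives were other filters, centring, quantile normalization, averaged probe sets, fewer groups, the replicate block, the time tag of 1 sample and each replicate left out. The fit was tested on simulated data with independent samples. These lack the deviations that same-numbered samples shared, so the simulation cannot tell how such deviations affect the calls.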

Additional observations from a re-analysis of the deposited data

Results flagged for a closer look

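Some genotype effects differed between conditions by a test of the difference itself. In CTx muscle the effect at day 8 exceeded that at day 4 by 1.67 on the log2 scale for Ccl5 (limma adjusted p = 0.0477), 3.07 for Ccl8 (0.00678, and 2.48 with 0.111 without DTR+ CTx day 4 replicate 3), 2.02 for Ccl9 (0.00394), 1.26 for Ccl24 (0.00663, and 0.0507 with only the groups compared) and 1.75 for Itgax (0.00678). The Ccl5 call was lost in 8 of the 11 runs that left out 1 sample. At day 8 the effect in CTx muscle exceeded that in xINJ muscle by 1.15 for Ccl24 (limma adjusted p = 0.019) and 1.70 for Itgax (0.0135). The latter pair did not pass without DTR+ xINJ day 8 replicate 1 (0.0847 and 0.112), and Ccl24 did not without DTR+ xINJ day 8 replicate 2 (0.0925), DTR- CTx day 8 replicate 3 (0.0572) or DTR- xINJ day 8 replicate 3 (0.0551). Ccl24 was above the filter level on the 3 DTR+ CTx day 8 arrays alone (7.29 to 7.60) and below it on all others, so it was tested through the group where it is high, and its 2 differences rest on 3 groups of dim values each.

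The DTR+ xINJ day 4 sample, which entered no comparison, was above all 6 DTR- xINJ samples for 5 members. It had Cxcl9 at 9.68 (DTR- xINJ range 7.36 to 8.01), Cxcl10 at 8.71 (6.93 to 7.20), Ccl5 at 8.49 (7.23 to 7.75), Cxcl16 at 7.75 (6.48 to 7.31) and Cxcr3 at 7.22 (6.66 to 7.14). Its Cxcr6 (5.62) and Cxcl11 (5.95) were within the DTR- xINJ range. The macrophage list mean of this sample was 8.18, against 7.25 to 7.57 in DTR- xINJ muscle at day 4, and its T cell mean 6.47 against 6.29 to 6.40, and their part in these values was not tested. The DTR+ day 0 sample had Cxcl10 at 7.30, above the same 6 samples, and its other members were within or below their range. With 1 sample each there is no replicate check, and no group was large enough for a test of outlying samples.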

How the results depend on the processing

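Over the 10 comparisons and 6 tested members, 775 of the alternative values kept direction and side of the threshold, 42 kept direction and lost the call, 9 gained it and 20 changed sign, none of these 20 from a called value. The other named genes were followed only where the main analysis called them, and not in all 10 comparisons. Of their values 798 kept both and 56 lost the call, and none could gain one. In the genotype comparison of CTx muscle at day 8, Cxcl9, Ccl5, Cxcl16, Cxcr3 and Cxcr6 passed under each alternative run, with limma adjusted p up to 0.0200 (Cxcr3). Cxcl9 in xINJ muscle also passed under each (up to 0.0223), as did the 4 ligands in CTx against xINJ muscle of DTR- mice. List counts under the alternatives were added after seeing the data.

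Counts moved most for the differences of effects. For day 8 minus day 4 the members called were 0 without the filter, with centring and with only the groups compared (1 in the main analysis), and 78 genes became 50 with centring and 26 with only the groups compared. The replicate block gave 153 there and 55 for CTx minus xINJ muscle, against 31. The latter count was 20 with a filter at the 50th percentile on 3 arrays and 57 with the time tag followed, and its split of 14 higher and 17 lower was 12 and 27 with centring. Its members called were 1 with only the groups compared. The block lost 1 member call, Cxcl9 between days in DTR+ CTx muscle, and changed no other member call. Following the time tag gave 602 genes with the genotype in xINJ muscle (347 in the main analysis). With only the groups compared, day 8 against day 4 in DTR+ CTx muscle gave 2 members and 841 genes (4 and 1471). The cause was not tested, except that fewer samples leave fewer degrees of freedom.

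With each replicate left out in turn, genes called ranged from 1 to 5 (genotype in CTx muscle, day 4), 265 to 515 (day 8), 90 to 437 (xINJ muscle), 12 to 223 (difference between days), 6 to 31 (between kinds of muscle), 1026 to 1551 and 1833 to 3132 (CTx against xINJ at day 8 in DTR- and DTR+) and 624 to 1637 (days in DTR+). Members called ranged from 1 to 3 (genotype, xINJ muscle), 0 to 4 (difference between days), 1 to 3 (days in DTR-) and 0 to 4 (days in DTR+). Values not called that changed sign ranged as follows. With the genotype in CTx muscle at day 4, Cxcl9 ranged from -0.15 to 1.13, Cxcl10 from -0.77 to 0.48, Ccl5 from -0.02 to 0.82 and Cxcl16 from -0.17 to 0.29, and in xINJ muscle Cxcr3 from -0.02 to 0.19. For the difference between kinds of muscle, Cxcl9 ranged from -0.31 to 0.13 (0.09 with quantile normalization) and Cxcl10 from -0.95 to 0.15. In CTx against xINJ muscle of DTR- mice at day 4 Cxcr6 ranged from -0.01 to 0.47. Between days, Cxcr3 ranged from -0.21 to 0.02 and Cxcr6 from -0.16 to 0.32 in DTR- muscle (-0.01 with quantile normalization), and Cxcl10 from -0.13 to 1.11 in DTR+ muscle. Cxcl11, Cxcr6 outside DTR+ CTx muscle, Ccr1, Ccr3 and Ncr1 lay at or under the filter level, where the array resolves little.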
